A study of Homo sapiens with 9 samples.

Results

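The light extracellular fraction of a human mast cell line was compared with the cells that released it, across every miRNA probe of an array. The cells were HMC-1, an established line from a patient with mast cell leukaemia, grown at 37 °C in 5% CO2. No agent, gene change or control treatment is named for them. Per the series' design text, extracellular RNA was collected by ultracentrifugation, split on a sucrose density gradient into a low density (LD) and a high density (HD) part, and profiled beside cellular RNA from each of 3 cultures. The comparison used 6 of the 9 libraries of the series, the LD and the cell library of each culture matched by culture number, and the 3 HD libraries served as a reference for what was particular to LD. The labels describe no vesicle marker, particle count or RNase treatment, so LD is here a density class and not a purified vesicle, and 1 cell line limits it as a model of mast cells.

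MicroRNAs are short RNAs cut from hairpin precursors that guide Argonaute proteins to messenger RNAs, chiefly through the seed, bases 2 to 8. Cells release part of their miRNAs, and light membrane vesicles such as exosomes are one known carrier, beside protein and lipoprotein complexes. In blood cells miR-223 is known as a myeloid miRNA, miR-142 as a marker of blood cells at large, and miR-221 and miR-222 as repressors of KIT, the receptor that mast cells need and that is constitutively active in HMC-1.

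The sequences below are those on which the findings turn, from RefSeq on GRCh38.p14, 5′ to 3′, with the seed in capitals. The first set is of miRNAs bright in the cells that were lower in LD. Let-7a and miR-98 share the seed of the let-7 family, miR-17 and miR-20b that of the miR-17 family, and miR-15b, miR-16 and miR-195 that of the miR-15/16 family. The mature miR-223-3p lies on the plus strand at chrX:66018937-66018958.
let-7a-5p: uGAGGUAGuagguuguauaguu
miR-98-5p: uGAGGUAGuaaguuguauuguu
miR-17-5p: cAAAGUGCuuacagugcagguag
miR-20b-5p: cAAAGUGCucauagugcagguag
miR-15b-5p: uAGCAGCAcaucaugguuuaca
miR-16-5p: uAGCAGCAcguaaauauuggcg
miR-195-5p: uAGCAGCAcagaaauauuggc
miR-223-3p: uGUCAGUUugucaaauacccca
miR-21-5p: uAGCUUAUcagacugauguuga

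The second set holds miRNAs whose hairpins overlap a small nucleolar RNA (snoRNA) gene, of which no LD array gave a signal. The mature miR-3651 lies on the minus strand at chr9:92292461-92292484, within SNORA84, miR-664a-3p on the minus strand at chr1:220200549-220200571, within SNORA36B, and miR-664b-3p on the plus strand at chrX:154768635-154768656, within SNORA36A.
miR-3651: cAUAGCCCggucgcugguacauga
miR-664a-3p: uAUUCAUUuauccccagccuaca
miR-664b-3p: uUCAUUUGccucccagccuaca

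The third set holds entries related to other small RNAs, miR-4284, which had the largest fall on the 6 arrays, and 3 that resemble parts of tRNAs. Those 3 had smaller changes than miR-4284. MiR-4284 lies on the plus strand at chr7:73711327-73711344, miR-4454 on the minus strand at chr4:163093607-163093626, miR-5100 on the plus strand at chr10:42997630-42997651 and miR-1260b on the plus strand at chr11:96341447-96341465.
miR-4284: gGGCUCACaucaccccau
miR-4454: gGAUCCGAgucacggcacca
miR-5100: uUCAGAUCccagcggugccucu
miR-1260b: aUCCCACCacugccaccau

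The fourth set holds miRNAs higher in LD than in cells, followed by 2 that were kept, miR-6089 and miR-92b-5p, and 1 detected in LD and not in cells, miR-4689. MiR-4725-3p, at the head of the set, lies on the plus strand at chr17:31575326-31575347.
miR-4725-3p: uGGGGAAGgcgucagugucggg
miR-4281: gGGUCCCGgggagggggg
miR-4484: aAAAGGCGggagaagcccca
miR-663a: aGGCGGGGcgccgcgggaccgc
miR-4745-5p: uGAGUGGGgcucccgggacggcg
miR-4749-5p: uGCGGGGAcaggccagggcauc
miR-4734: gCUGCGGGcugcggucagggcg
miR-6089: gGAGGCCGggguggggcggggcgg
miR-92b-5p: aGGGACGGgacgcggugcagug
miR-4689: uUGAGGAGacauggugggggcc

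Each library was read on its own 1-colour array of 2019 miRNA probes, and values are the authors' normalized intensities, in which each array's median over detected probes is 25. A probe counts as detected where its value is given, which needed a raw signal above the blank spots by 2 SD. Cell arrays detected 440 to 506 probes, LD arrays 303 to 368 and HD arrays 254 to 329. Over the 334 probes tested, LD arrays correlated with each other at 0.947 to 0.971 on the log2 scale, with cell arrays at 0.577 to 0.707 and with HD arrays at 0.531 to 0.641. By the chip number and day recorded with the scans, the 3 cell arrays make up 1 slide of their own, LD of culture 1 shares a slide with the 3 HD arrays, and LD of cultures 2 and 3 are on another. No slide holds both cells and LD, so for that comparison slide and group cannot be told apart. The pairing by culture rests on the design text, since same-numbered cell and LD arrays did not deviate together, with correlations of 0.07, 0.01 and -0.06 for cultures 1, 2 and 3.

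Of the 277 probes detected on all 3 cell arrays, 154 were detected on all 3 LD arrays, 63 on 1 or 2 of them and 60 on none. Signal in the cells went with detection in LD, although probe signal also depends on the probe's sequence and is no measure of one miRNA against another. Of the 34 probes with a mean cell signal above 500, all 34 were on every LD array. Between 100 and 500, 58 of 82 were on every LD array and 7 on none. Below 20, 6 of 34 were on every LD array and 19 on none. An undetected probe is one not above the blank spots, which is not absence.

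**Figure D1:**
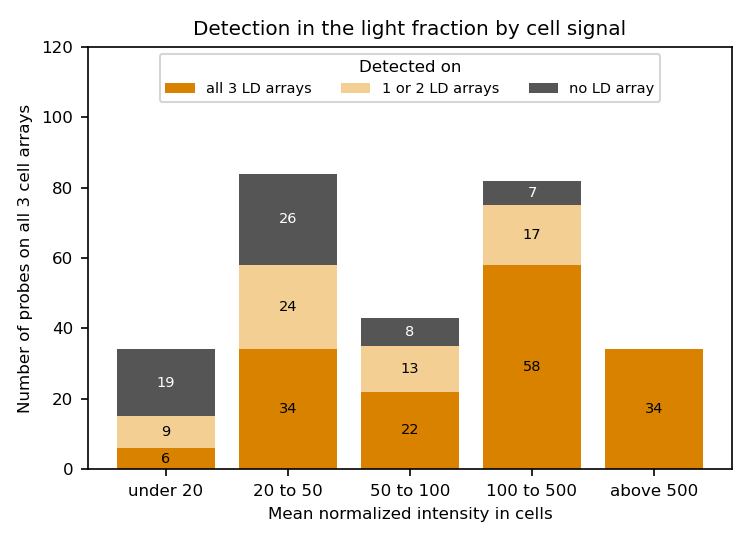
Probes detected on all 3 cell arrays, by their mean normalized intensity in cells (horizontal axis), with the number of probes on the vertical axis and bar segments for detection on all 3, on 1 or 2, or on none of the LD arrays. The 34 probes above 500 are all on every LD array, and of the 34 below 20, 19 are on none.

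Tests were made with limma on log2 normalized intensity, with undetected values at the lowest detected value of their array, the culture as a block, and a Benjamini-Hochberg adjusted p of less than 0.05. The 334 probes tested are those found on every array of cells, of LD or of HD. LD differed from cells for 203 of them. Lower signal was called for 147 probes (44.0% of those tested) and higher signal for 56 (16.8%), and the other 131 were not called. In all 3 cultures LD was above its own cell library for 56 of the 56 and below it for 146 of the 147. The same arrays made the calls, so these counts are no separate check. Groups that do not overlap were common. Of the 334 tested probes, all LD arrays lay below all cell arrays for 154 and above them for 70, undetected values included. Among the 154 probes on all 6 arrays, 63 were lower, 43 higher and 48 not called, with log2 changes from -5.53 to 3.59 around a median of -0.16 (median SE 0.36). The median over the 334 was -0.54. In bulk RNA, fewer vesicles or cells and less RNA in each cannot be told apart.

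These calls are relative to each array's own scale, and another scale moves the zero. The median log2 change of the 334 probes was -0.06 after quantile normalization or in the authors' deposited log2 table, -0.10 after normexp background correction with quantile normalization, 0.32 with no scaling, -1.26 when scaled on the 81 probes common to the 9 arrays and 1.68 when scaled on the spike controls. The split of higher and lower calls was 76 and 119 after quantile normalization, 71 and 117 in the deposited log2 table, 80 and 121 after normexp with quantile normalization, 46 and 49 with no scaling, 20 and 187 on the commonly detected probes and 202 and 31 on the spike controls. Only the spike control scaling turned calls round, in 15 of the 102 probes called both ways. With the slide as a random block, 16 were higher and 117 lower. Across those 6 other scalings and normalizations, 19 probes stayed higher and 30 stayed lower in every one. Calls and counts below are on the main scale unless another is named, and differences between probes within an array do not depend on a constant scaling.

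**Figure D2:**
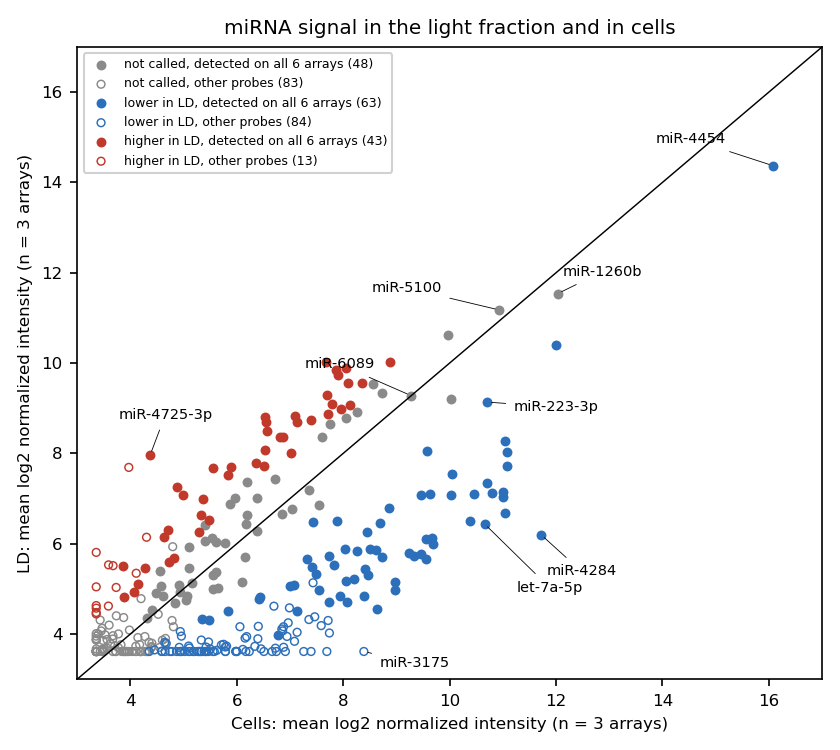
Mean log2 normalized intensity of the 334 tested probes in cells (horizontal axis) and in LD (vertical axis), n = 3 arrays each. Filled points were detected on all 6 arrays, open points on fewer, colours give the call, and the line marks equal signal. Bright cell miRNAs such as let-7a-5p lie far below the line, miR-5100 and miR-6089 lie on it, and miR-4725-3p lies above it.

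The let-7 family, which represses LIN28, HMGA2 and RAS messages and is high in differentiated cells, fell as a group. All 9 probes of let-7 and miR-98 were tested and all 9 were lower in LD, against 44.0% of all tested probes, with a median log2 change of -3.72. Of the tested probes numbered below 1000, 124 of 174 were lower, as were 29 of the 34 above 500 in cells. Let-7a-5p read 1072, 2338 and 1680.3 in the cells of cultures 1 to 3 and 70.01, 111 and 83.6 in LD. Every LD array lay far below every cell array. The fall was 18.7-fold (log2 change -4.22, SE 0.37, limma adjusted p = 9.45e-06). Let-7f-5p, which differs from let-7a-5p at 1 of 22 bases, fell 15.9-fold, from 1531, 2959 and 1936 in cells to 99, 127 and 175 in LD. Let-7e-5p, also 1 base away from let-7a-5p, went from 427, 661 and 452 to 18, 47 and 37.4. Probes that differ by so little may share signal, so these are not independent readings. MiR-98-5p, with the same seed, read 55.9, 102 and 74.3 in cells and was on no LD array, a fall of at least 6.15-fold, while let-7b-5p was detected in LD of cultures 2 and 3 alone. The family's median stayed negative under every scaling, at -1.49 under the spike controls, where 7 of 9 were still called lower.

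The miR-17 family, products of the MYC-induced miR-17-92 cluster and its paralogues on chromosomes 7 and X, behaved alike. All 6 tested probes of miR-17, miR-20, miR-93 and miR-106 were lower, against 44.0% of all tested probes. All 6 were detected on every LD array, with a median log2 change of -3.64. MiR-20b-5p read 1099, 1729 and 1270.1 in cells and 50.4, 91.4 and 161 in LD, a fall of 14.8-fold (SE of log2 change 0.37, limma adjusted p = 1.36e-05). MiR-17-5p read 1696, 2643 and 1929.5 in cells and 122, 134 and 172 in LD. The cell and LD values of both did not overlap. MiR-106b-5p fell less, from 304, 490.4 and 320.0 to 57.6, 53.7 and 66.2. Within arrays its log2 change exceeded that of miR-17-5p by 1.24 ± 0.14 (SD over 3 cultures), a pair chosen after its values were seen. MiR-18, miR-19, miR-25 and miR-92 have other seeds and come from the same clusters, apart from miR-92b-3p on chromosome 1. They were lower for 7 of 7 tested probes, with a median of -2.94, and 3 of the 7 were on every LD array. Both medians stayed negative under every scaling, at -1.41 and -0.71 under the spike controls, where 5 of 6 and 2 of 7 were called lower, and with no scaling 5 of 6 and 4 of 7 were.

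The miR-15/16 family, which represses BCL2 and G1 cyclins, was less uniform. Of 6 tested probes 5 were lower, against 44.0% of all tested probes, and 1 was not called. The median was -3.04, or -0.81 under the spike controls, where 2 were lower and 1, miR-424-5p, was higher. MiR-497-5p read 292, 566 and 387 in cells and 13.8, 36.1 and 26.3 in LD, a fall of 17-fold (log2 change -4.09, SE 0.33, limma adjusted p = 8.31e-06). Its neighbour on chromosome 17, miR-195-5p, read 452, 1095 and 846 in cells and 20.9, 74.1 and 85.3 in LD, and fell 14.7-fold. MiR-16-5p fell 8.22-fold, from 1525, 3118 and 2113 to 169.9, 281 and 379. MiR-15b-5p, made from the same cluster on chromosome 3 as a copy of miR-16 and sharing its seed, kept more of its signal, with 651, 995 and 697 in cells and 170.1, 303 and 356 in LD. Its fall was 2.91-fold (limma adjusted p = 0.00679), and it was not called without cell replicate 2 (log2 change -1.32) or without culture 2 (-1.45), with no scaling (-0.68) or with the slide as a random block (-1.64). Within arrays the log2 change of miR-15b-5p exceeded that of miR-16-5p by 1.23, 1.76 and 1.51 in the 3 cultures, a pair that was not planned. MiR-424-5p was dim in cells, at 19.97, 43.4 and 18.5, was detected in LD of culture 2 alone and was not called (limma adjusted p = 0.0524).

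Blood cell and inflammation miRNAs check the label of the cells. MiR-142-3p read 152, 409 and 294, miR-223-3p 1103, 2393 and 1783 and miR-221-3p 449, 499 and 274 in the cells, while miR-155-5p was on no cell or LD array. Of the 16 such miRNAs on the array 12 were tested and all 12 were lower in LD, against 44.0% of all tested probes. Their median log2 change was -2.63. Under the spike controls that median was -0.41, with 1 lower and 1, miR-223-5p, higher. After quantile normalization it was -0.62, with 10 of 12 lower, and with no scaling -1.77, with 3 lower. The median was negative under each scaling, while the number of calls was not stable.

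MiR-223-3p had the smallest fall of the 10 blood cell miRNAs detected on all 6 arrays. It read 329, 695 and 776 in LD, a fall of 2.98-fold (log2 change -1.58, SE 0.52, limma adjusted p = 0.0225). LD was below cells in each culture and the groups did not overlap. Within arrays its log2 change exceeded that of let-7a-5p by 2.65 ± 0.47 (SD over 3 cultures). Let-7a-5p had 1 of the largest falls, so the choice of this pair made a gap certain. The call was lost after quantile normalization (-0.38), in the deposited log2 table (-0.22) and without LD replicate 1 (-1.09), cell replicate 2 (-1.26), cell replicate 3 (-1.53), culture 2 (-1.47) or culture 3 (-1.76). It was lost with normexp (-0.40), with no scaling (-0.72) and with the slide as a random block (-1.70) as well, and the sign turned under the spike controls (0.65). Its other arm, miR-223-5p, read 23.2, 27.1 and 13.6 in cells and was on no LD array, so the arms could not be compared beyond a fall of at least 1.67-fold. Of the 2 arms of miR-142, the only hairpin with both arms on all 6 arrays, the 5p arm fell less than the 3p arm, by 0.63 ± 0.15 log2 units (SD over 3 cultures).

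MiR-21-5p, among the most abundant miRNAs of many cell types, read 1299, 3408 and 2110.0 in cells and 233, 335 and 382 in LD, a fall of 6.79-fold. MiR-146b-5p, a feedback repressor of the NF-κB pathway, fell 10.3-fold, from 1362, 3557 and 2058 to 119.7, 229 and 335. Its sister miR-146a-5p, which differs at 2 of the first 22 bases, fell 4.93-fold, from 200.3, 323 and 179 to 38, 46.3 and 54.8. The difference between them within arrays was 1.06 ± 0.13 log2 units (SD over 3 cultures), for a pair that was not planned. The KIT-targeting pair miR-221-3p and miR-222-3p, with 1 seed and 1 cluster on chromosome X, fell 6.81-fold and 6.9-fold.

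Families found in most cell types were lower too, as were 44.0% of all tested probes and 124 of 174 numbered below 1000. MiR-103a-3p and miR-107, which differ at 1 of 23 bases, fell 11.7-fold and 12.8-fold and were called lower under every scaling. The miR-26 and miR-29 probes, which include repressors of collagen and MCL1 messages, were lower for 5 of 5, with a median of -3.03, and -0.80 under the spike controls. The miR-23, miR-24 and miR-27 probes were lower for 5 of 5 (median -2.39, and -0.16 under the spike controls, where 1 was higher and none lower), and so were the 5 of miR-30 (median -2.30, and -0.07 under the spike controls with none called). With no scaling none of the miR-30 probes and 1 of the miR-23, miR-24 and miR-27 probes was called lower, with medians of -1.44 and -1.53. Of the 5 tested probes of miR-10, miR-99/100 and miR-125, 4 were lower and miR-100-5p, at 14.2, 14.3 and 11.4 in cells and on no LD array, was not called. Their median of -1.63 turned to 0.59 under the spike controls, and 2 were called lower after quantile normalization and 1 with no scaling. MiR-210, the hypoxia-induced miRNA, named here although it is in no list and was chosen after its values were seen, fell 11.6-fold, from 183, 479 and 425 to 18.1, 34.1 and 38.5.

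**Figure D3:**
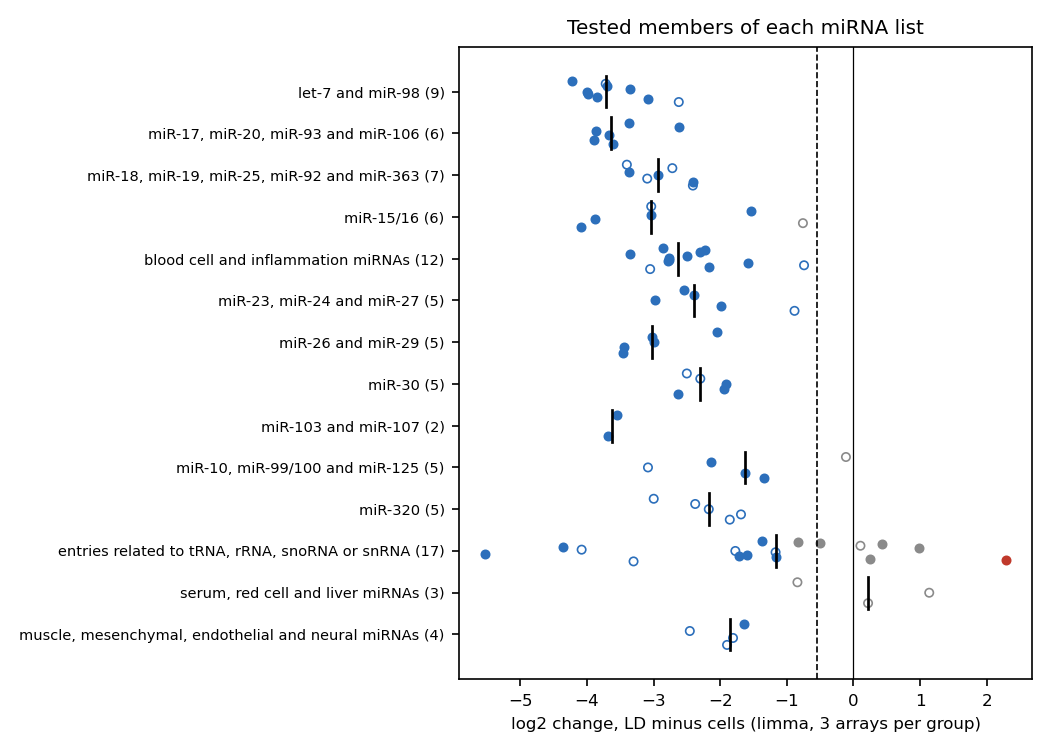
Log2 change between LD and cells (horizontal axis, limma, 3 arrays per group) of the tested members of each list (rows, number tested in parentheses). Filled points were detected on all 6 arrays, open points on fewer, blue is lower in LD, red higher and grey not called. Black bars are list medians, the dashed line is the median of all tested probes at -0.54. Let-7 lies at -3.72, and the entries related to tRNA, rRNA, snoRNA or snRNA spread from -5.53 to 2.29.

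The 60 probes on every cell array and no LD array were chosen by detection, which fixes the direction of any call, so calls among them are not counted here. Their mean cell signals ran from 11.2 to 335 with a median of 33.3, and 41 of the 60 were also on no HD array. MiR-3175 was the brightest, at 436, 349 and 247 in cells, so its fall was at least 27.4-fold (limma adjusted p = 8.31e-06). MiR-423-3p, a widely expressed miRNA, read 102, 104 and 116 in cells, a fall of at least 8.76-fold. MiR-7-5p, a repressor of EGFR signalling outside the naming rule, read 112, 135 and 49.7 in cells, a fall of at least 7.45-fold.

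The hairpins that overlap snoRNA genes were among them. SnoRNAs guide the modification of ribosomal RNA in the nucleolus and miRNA-like RNAs can be cut from some of them. Of 7 such entries on the array 3 were tested, and all 3 were on no LD array. Of the 227 other matched probes detected on all 3 cell arrays, 47 were on no LD array. MiR-3651 read 230.3, 221 and 174 in cells and fell at least 16.9-fold. MiR-664b-3p read 138, 207 and 125 and fell at least 12.5-fold, and miR-664a-3p read 96.1, 189 and 96.1 and fell at least 9.85-fold. Cells were high and LD below detection in all 3 cultures. The 3 were called lower under every scaling, but being on no LD array fixed the direction of the main call. MiR-3607-3p read 126, 264 and 144 in cells and was lower by at least 13.8-fold.

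Most probes of the miR-320 and miR-378 families were on no LD array. Of the 5 miR-320 probes none was on all LD arrays and 4 were on none. All 5 were called lower on the main scale, against 44.0% of all tested probes, but missing detection in LD largely fixed that direction. Their median of -2.17 became 0.053 under the spike controls with none called, and with no scaling 1 was called. MiR-320b read 77, 63.1 and 52.4 in cells, a fall of at least 5.19-fold, and miR-320a was detected in LD of culture 1 alone. MiR-320a is known to be made without Drosha. Of the 7 tested miR-378 probes 5 were on no LD array and 2 on some. All 7 were called lower, with log2 changes from -3.05 to -1.48, a direction likewise largely fixed by detection. That family was chosen after its values were seen, apart from miR-378a-3p. MiR-378a-3p, from an intron of the metabolic coactivator gene PPARGC1B, read 124, 104 and 80.8 in cells and fell at least 8.29-fold. Members of both families are close in sequence and their probes may share signal.

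Entries related to tRNA, rRNA, snoRNA or snRNA split in all directions. Of 20 on the array 17 were tested, of which 10 were lower, 1 higher and 6 not called. Of all tested probes 44.0% were lower and 16.8% higher. The list's median of -1.17 moved to -1.89 under the commonly detected probes and to 1.06 under the spike controls. The number lower was 4 with no scaling or under the spike controls, 5 with the slide as a random block, 7 after quantile normalization and 12 under the commonly detected probes, and 9 were higher under the spike controls. MiR-4284 changed most of all probes on the 6 arrays, from 4589.8, 3469 and 2414 in cells to 23.4, 138 and 122 in LD. LD of culture 1 was the lowest, and every LD array was far below every cell array. The fall was 46.1-fold (log2 change -5.53, SE 0.58, limma adjusted p = 2.22e-05). MiR-1273g-3p fell 20.5-fold, from 2404, 2513 and 1545 to 63.8, 118 and 143.

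MiR-4454, miR-5100, miR-1260a and miR-1260b, entries known to resemble parts of tRNAs, kept more than miR-4284 but were not alike. The log2 changes of miR-4454 (-1.71) and miR-1260a (-0.84) lay below the median of all tested probes (-0.54). Those of miR-1260b (-0.49) and miR-5100 lay above it. MiR-5100 read 1913, 2875 and 1346 in cells and 2272, 2278 and 2396 in LD. The ranges overlapped, with LD inside the spread of the cells, and the log2 change was 0.25 (95% interval -0.50 to 1.00), which met the rule for a kept probe on the main scale. It was called higher in LD under 4 of the 6 other scalings and normalizations, namely quantile normalization, the deposited log2 table, normexp and the spike controls. Within arrays its change exceeded that of miR-4284 by 7.86, 4.32 and 5.14 log2 units in cultures 1, 2 and 3. MiR-4284 had the largest fall of all, so the choice of this pair made a gap certain. MiR-1260b read 4502, 5808 and 2813 in cells and 2265, 3095 and 3753 in LD and was not called (limma adjusted p = 0.399), with an interval of -1.55 to 0.56 that reaches beyond 2-fold. In the deposited log2 table it was called higher, at 0.85. MiR-1260a, 1 base different over 18, read 1111, 1457 and 703 and 502, 680.2 and 587. MiR-4454 fell 3.27-fold, from 68312, 97819.5 and 49890.2 in cells to 18175, 20287 and 25764 in LD (limma adjusted p = 0.00399). Of the 6 other scalings and normalizations, only that on the commonly detected probes held the call. After quantile normalization and in the deposited log2 table its change was 0, as it was the brightest probe on these arrays.

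MiR-663a, listed here for its relation to ribosomal RNA, was the only member called higher. It read 119.7, 107 and 60.6 in cells and 295, 569 and 544 in LD, a rise of 4.89-fold (SE of log2 change 0.43, limma adjusted p = 9.09e-04). MiR-3648, another entry of ribosomal RNA origin, read 366, 441 and 333 in cells and 479, 950.0 and 910.4 in LD and was not called (limma adjusted p = 0.112), although LD was above cells in each culture. It was called higher after quantile normalization, in the deposited log2 table, after normexp and under the spike controls. MiR-1246, which resembles the U2 small nuclear RNA, was lower, with 359, 311 and 119 in cells and 71, 116 and 92 in LD. The groups did not overlap, and the call was held by the main scale and by scaling on the commonly detected probes but by no other.

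A miRNA counted as kept where the 95% interval of its log2 change lay within 2-fold, which was met by 12 of the 154 probes on all 6 arrays (7.79%). The remaining 36 probes of that set that were not called had wider intervals and are neither kept nor changed. Of the 12, 10 have miRBase numbers of 1000 or above, and their mean cell signals ran from 21.1 to 1949. MiR-6089 read 717, 672 and 492 in cells and 634, 617 and 614 in LD (log2 change 0.01, interval -0.70 to 0.71), and was called higher after quantile normalization, in the deposited log2 table, after normexp and under the spike controls. MiR-92b-5p read 30.8, 32.3 and 28.3 and 28.5, 36 and 27.5, with overlapping ranges (interval -0.75 to 0.76). Its other arm, miR-92b-3p, was lower, at 116, 140.0 and 126 in cells and detected in LD of cultures 2 and 3 alone. MiR-937-5p, miR-1914-3p, miR-4667-5p and miR-6075 had log2 changes of -0.03, 0.14, -0.15 and 0.17 and, like miR-92b-5p, were called higher under the spike controls alone. The number kept is a property of the scale, since it was 79 after quantile normalization and 0 with no scaling.

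Higher signals in LD were mostly in entries with high miRBase numbers. Of 160 tested probes numbered 1000 or above 47 were higher and 23 lower, and of 174 below that number 9 were higher and 124 lower. MiR-4725-3p read 17.5, 28.5 and 17.7 in cells and 138, 359 and 312 in LD. All LD arrays were well above all cell arrays, with culture 1 the lowest in LD. The rise was 12.1-fold (log2 change 3.59, SE 0.34, limma adjusted p = 1.34e-05). MiR-4281 read 29.2, 23.6 and 36.6 in cells and 108, 179.6 and 187 in LD, a rise of 5.25-fold. MiR-4484 read 239.7, 227 and 158 and 672, 1339.5 and 1247, a rise of 5.07-fold. In none of them did cells and LD overlap.

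MiR-4745-5p rose 4.46-fold, from 104, 118 and 66.1 in cells to 274, 608 and 434 in LD. MiR-4749-5p rose 4.39-fold, from 67.2, 44.2 and 34.2 to 152, 219.9 and 257. MiR-4734 rose 4.27-fold, from 57.3, 25 and 22 to 134, 113 and 162. MiR-1234-5p rose 3.92-fold, from 285, 215 and 210.2 to 569, 1303 and 1049. These and the preceding rises of this group, miR-663a included, were called higher under all 6 other scalings and normalizations, so they rose relative to most probes whichever zero was used. The 9 higher probes numbered below 1000 were miR-92a-2-5p, miR-204-3p, miR-513a-5p, miR-638, miR-642a-3p, miR-663a, miR-671-5p, miR-711 and miR-762, most of them arms or entries other than the well-known abundant miRNAs. MiR-204-3p, the lesser-known arm of the miR-204 hairpin, read 281, 298 and 221 in cells and 770.3, 1122 and 983 in LD.

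**Figure D4:**
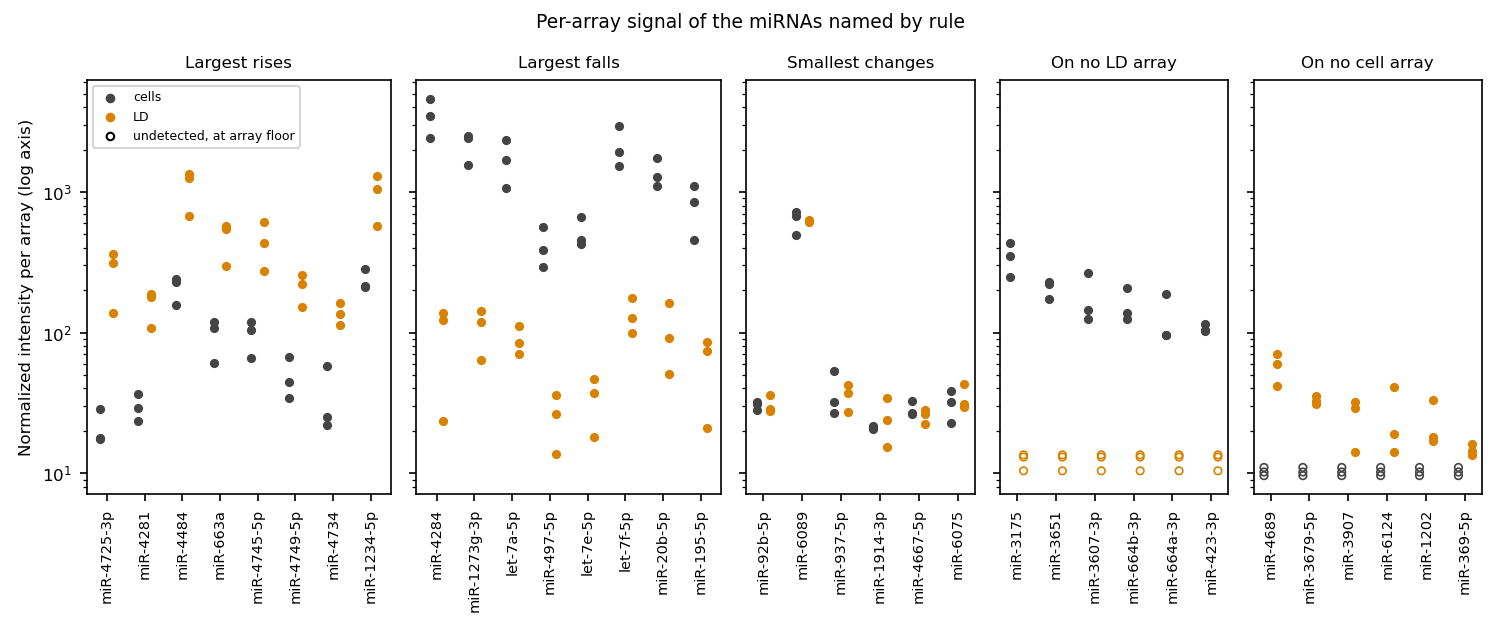
Normalized intensity on each cell array (dark) and LD array (orange) of the miRNAs named by rule, on a log axis, with open circles for undetected values drawn at the array's lowest detected value. In the panels of the largest rises and falls cells and LD do not overlap, and in the panel of the smallest changes they lie together. Choosing probes by the size of their change all but fixed both.

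On every LD array and no cell array, 6 probes were detected. MiR-4689 read 70.3, 41.9 and 59.5 in LD, a level at least 5.46-fold above the cell floor (limma adjusted p = 1.98e-04), and miR-3679-5p read 32.4, 31.1 and 35.6, at least 3.22-fold. Both were called higher under every scaling. MiR-3907, miR-6124 and miR-1202 were at least 2.32, 2.17 and 2.12-fold higher, close to the floor, and each lost its call when single arrays were left out, among them LD replicate 2 for miR-3907 (log2 change 0.98), LD replicate 1 for miR-6124 (0.70) and LD replicate 3 for miR-1202 (0.56). Of the 6 other scalings and normalizations 5 held the call of miR-3907, 2 that of miR-6124 and 3 that of miR-1202. MiR-369-5p, from the imprinted cluster on chromosome 14, read 16.2, 13.4 and 14.3 and was not called (limma adjusted p = 0.115). MiR-4294, off the rule because cells of culture 1 did not detect it, read 20.6 and 16.9 in the other cells and 168, 206 and 254 in LD.

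Base composition ran alongside the change. Mature sequences were matched by name for 277 of the 334 tested probes and 131 of the 154 on all 6 arrays. Median GC content was 75% for the 49 matched probes higher in LD, 66.7% for those not called and 45.5% for the 121 lower, against 50% for the 1688 matched probes on the array. Of the matched probes on all 6 arrays, all 39 below 50% GC were lower in LD, and none of the 53 at 70% or more was, with 27 of these higher and 26 not called. Between 50% and 70%, 11 were higher, 16 lower and 12 not called. The rank correlation of GC content and log2 change across these 131 probes was 0.76 as a description, and 0.72, 0.77 and 0.77 in cultures 1, 2 and 3. The probes share their arrays and are not independent. GC content also went with lower cell signal, with a rank correlation of -0.52, and the part of probe chemistry was not tested.

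A constant scaling shifts all probes of an array alike, so it cannot test that order. The medians of probes at 70% GC or more and below 50% were 4.02 log2 units apart under each of these. After quantile normalization the gap was 1.80, with the deposited log2 values it was 1.69, and after normexp with quantile normalization 2.33. Over the 69 matched probes detected on all 9 arrays the rank correlation was 0.24. MiR-4284 stood off the trend, with 61.1% GC and the largest fall.

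**Figure D5:**
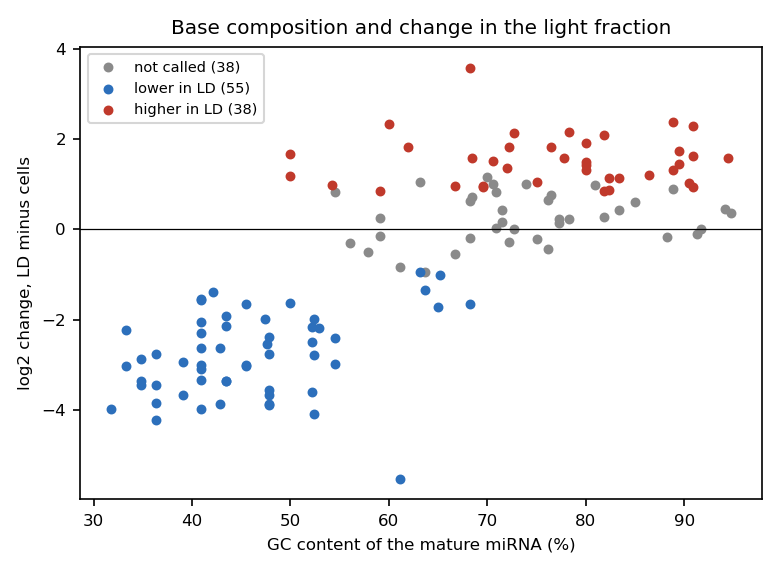
GC content of the mature miRNA in percent (horizontal axis) against its log2 change between LD and cells (vertical axis) for the 131 matched probes detected on all 6 arrays, coloured by call. Probes below 50% GC all lie below 0, and the lowest point is miR-4284 at -5.53.

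Runs of G were rare among the lower probes. The letters GGGG were searched on the given strand of the mature sequence. They were in 67.3% of the matched probes higher in LD, 41.1% of those not called and 2.48% of those lower. Of the tested matched probes 28.9% had them, and of all matched probes 10.1%. Among matched probes on all 6 arrays, 65.8% of the higher and 63.2% of those not called had these letters. In the printed sequences they are within the seeds of miR-4725-3p, miR-663a and miR-4749-5p. They run across the end of the seed or lie outside it in miR-4281, miR-4745-5p, miR-4689 and the kept miR-6089. GGAG, a motif known from studies of miRNA sorting into vesicles, was in 36.7% of the higher probes, 35.5% of those not called, 11.6% of the lower and 14.9% of all matched, and can share letters with GGGG. CCCU, another such motif, was in 6.12%, 5.61%, 8.26% and 9.18%. A match is no site.

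Probes that share a seed often fell together. All 8 probes with the let-7 seed GAGGUAG, all 6 with AAAGUGC of the miR-17 family, all 3 with AGCACCA of miR-29 and all 5 with CUGGACU of miR-378 and miR-422a were lower, and so were 5 of 6 with AGCAGCA of miR-15/16. In the other direction, 2 of the 3 probes with GGGGCGG, miR-3180 and miR-3196, were higher and miR-3180-3p was not called. Of all tested probes 44.0% were lower and 16.8% higher. Among those numbered below 1000, 124 of 174 were lower, as were 29 of the 34 above 500 in cells. The counts by seed are to be read against those shares. None of the CUGGACU probes was on every LD array. Shared seeds come with shared sequence and GC content, so these groups are not separate from the pattern above.

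The dense fraction served as a second extracellular sample to set LD against. LD was higher than HD for 86 probes (25.7% of those tested) and lower for 88 (26.3%). On the slide that holds the 3 HD arrays and LD of culture 1, that LD array was above all 3 HD arrays for 84 of the 86 and below all 3 for 85 of the 88, but the same arrays made these calls, so the counts are no separate check of the slide. LD lay between the other groups for many probes: 58 were called lower than cells and higher than HD, and 26 higher than cells and lower than HD. A further 84 were lower than cells and not called against HD, and 5 were lower than both. The LD arrays enter both of these comparisons.

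Most of the bright cell miRNAs that fell in LD were lower still in HD. MiR-223-3p was detected on 1 HD array, at 34.1, and LD was above HD by 5.07 on the log2 scale (SE 0.52, limma adjusted p = 2.46e-05). MiR-146b-5p was on no HD array, so LD was at least 17.3-fold higher. Of the let-7 and miR-98 probes 7 of 9 were higher in LD than in HD, of the miR-17 family 6 of 6, and of the 12 blood cell miRNAs 9, with none lower. Of all tested probes 25.7% were higher in LD than in HD. Of the 5 miR-320 probes none was called between the fractions.

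MiR-5100, miR-1260a, miR-1260b and miR-4454 were far higher in LD than in HD, which does not speak for tRNA-like RNA as a class. Of the 17 tested entries related to tRNA, rRNA, snoRNA or snRNA, 7 were higher in LD than in HD and 4 lower. MiR-5100 was detected on 1 HD array, at 16.5, against about its cell level in LD, a log2 difference of 7.43 (SE 0.34, limma adjusted p = 2.50e-07). MiR-1260b read 156, 62.7 and 35 in HD and miR-4454 658, 254 and 302, log2 differences of 5.41 and 5.84. MiR-1260a, on 2 HD arrays at 53.3 and 21, differed by 4.62. Every LD array was above every HD array for these entries. Of the 12 kept probes 7 were higher in LD than in HD, 4 lower and 1 not called. Of all tested probes 25.7% were higher and 26.3% lower.

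Of the 56 miRNA probes higher in LD than in cells, 26 were lower in LD than in HD, 16 not called between the fractions and 14 higher. Of all tested probes 26.3% were lower in LD than in HD and 25.7% higher. The 56 were chosen on the same LD arrays. MiR-4725-3p read 231, 552 and 205 in HD and was not called between the fractions. MiR-4281 read 858, 946 and 351 in HD, 4.28-fold above LD, and miR-1234-5p 4868, 9689 and 3907, 6.19-fold above LD. MiR-4734 went the other way, with 56.8, 25.3 and 21.5 in HD, close to the cells, so LD was 4.3-fold above HD (limma adjusted p = 6.49e-04). MiR-3907 was on no HD array and no cell array, and LD was at least 1.96-fold above HD.

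Of the 8 epithelial miRNAs on the array 7 were detected on at least 1 cell or LD array. None was on all 3 arrays of a group and none was tested. Among serum, red cell and liver miRNAs, miR-451a of red cells was in LD at 32.9, 72.6 and 95.4 and in cells of cultures 2 and 3 at 52.4 and 37.1. It was not called (limma adjusted p = 0.281), and HD arrays read 568, 49.6 and 121, which overlap with LD. MiR-144-3p, made with miR-451a in red cells, was on no LD or cell array, and the liver miRNA miR-122-5p was on no LD array. Of the 8 serum, red cell and liver miRNAs on the array, 7 were on at least 1 cell or LD array. The part of serum in the culture medium was not tested. Of the muscle, mesenchymal, endothelial and neural miRNAs 4 of 15 were tested, miR-126-3p, miR-128, miR-9-3p and miR-9-5p. All 4 were lower in LD, against 44.0% of all tested probes, with a median of -1.85. Only 1 of them was lower by quantile normalization or by the authors' log2 values, 2 after normexp and none with no scaling, and under the spike controls the median was 0.37 with none called.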

How the data were processed

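Total RNA of 9 libraries, 3 each of HMC-1 cells, HD and LD, was labelled with Hy5 and hybridised to 1-colour locked nucleic acid arrays, per the labels' protocols. Per the file headers, the authors gave each spot's intensity as read, after background subtraction and after global normalization. Set against each other, the deposited columns show that the values of an array were multiplied by 1 factor that puts the median of its detected probes at 25. The authors also deposited a log2 table of the whole series, whose columns followed log2 raw intensity at 0.986 to 0.998 with medians of 6.75 to 6.76. Scanner software is not given in the sources used here.

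From the normalized intensities, log2 values were tested with limma 3.58.1 in R 4.3.3 (culture as block, all 9 libraries, 4 residual and 6.05 prior degrees of freedom, two-sided). Undetected values were set to each array's lowest detected value (3.26 to 3.75 on the log2 scale), and 25 values marked NG were left out. Control spots entered no test. Folds against a group with no detected array are bounds against those lowest values. The limma fit was tested on simulated data. The named miRNAs were the 8 largest rises and 8 largest falls on all 6 arrays, the 6 smallest changes among kept probes, the 6 brightest on no LD array, the 6 on no cell array, and list members. The members and lists were chosen with earlier results of these data known. Alternatives were other scalings and normalizations, filters, missing values, no block, the slide and leaving out each library or culture. Sequences were matched by name to RefSeq GRCh38.p14, and 1688 of 2019 probes matched. Figures used matplotlib 3.10.9 in Python 3.11.15.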

Additional observations from a re-analysis of the deposited data

Results flagged for a closer look

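MiR-1246, an entry that resembles a stretch of the U2 small nuclear RNA, moved in opposite directions in the fractions. Its signal in LD lay below the cells (log2 change -1.38) and in HD above them (1.65). The difference between the fractions, LD minus HD, was -3.03, with every LD array below every HD array (limma adjusted p = 0.000115). The LD call did not hold after quantile normalization or with no scaling. The difference between the fractions takes no cell value, but its p rests on a spread estimated over all 9 libraries, cells included.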

How the results depend on the processing

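The scaling decided most. For LD against cells, quantile normalization gave 76 higher and 119 lower, the authors' log2 values 71 and 117, normexp with quantile normalization 80 and 121, no scaling 46 and 49, scaling on the commonly detected probes 20 and 187, scaling on the spike controls 202 and 31, and the slide as a random block 16 and 117. The count of kept probes was 79 after quantile normalization and in the deposited log2 table, 64 after normexp, 0 with no scaling, 3 on the spike controls and 0 with the slide as a random block. With probes limited to those on all 9 arrays, 39 were higher, 5 lower and 3 kept, and the median log2 change was 0.94 in place of -0.54. That filter needs detection in HD and left no probe of let-7 and miR-98 or of the miR-17 family. With undetected values left missing 45 were higher, 43 lower and 6 kept. With log2(value + 1), 36 were higher and 2 kept. LD against HD gave 29 lower with no scaling, 53 lower on the commonly detected probes, 52 higher on the spike controls, 15 higher and 39 lower on the probes of all 9 arrays, and 51 and 54 with values left missing. The fit with no replicate block gave 55 higher and 146 lower, so the pairing by culture moved few calls. Leaving out 1 library or 1 culture gave 29 to 65 higher, 128 to 149 lower and 2 to 17 kept, and for LD against HD 60 to 94 higher and 53 to 97 lower. Without cell replicate 2, cell replicate 3, LD replicate 2, culture 2 or culture 3 the kept count was 3, 2, 4, 3 and 6, and LD against HD had 53 lower without culture 2. The rank correlation with GC content, an alternative chosen after seeing the data, was 0.80 after quantile normalization, 0.79 in the deposited log2 table and after normexp, and 0.24 over the probes on all 9 arrays.

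Signs turned mostly on the spike controls, by log2 change: miR-937-5p (2.19), miR-4667-5p (2.07), miR-15b-5p (0.68), miR-424-5p (1.47), miR-223-3p (0.65), miR-223-5p (1.48), miR-342-3p (0.060), miR-27a-3p (0.24), miR-27b-3p (1.34), miR-26a-5p (0.17), miR-30c-5p (0.31), miR-30d-5p (0.28), miR-100-5p (2.11), miR-10a-5p (0.083), miR-125a-5p (0.59), miR-99b-5p (0.89), miR-320c (0.053), miR-320d (0.54), miR-320e (0.37), miR-1246 (0.85), miR-1260a (1.39), miR-1260b (1.73), miR-3653 (0.45), miR-3687 (1.06), miR-4286 (0.63), miR-4454 (0.51), miR-4485 (1.06), miR-16-2-3p (1.38), miR-126-3p (0.58), miR-9-3p (0.42), miR-9-5p (0.33). List medians turned there to 0.59 for miR-10, miR-99/100 and miR-125, 0.053 for miR-320, 1.06 for the entries related to other small RNAs and 0.37 for the muscle, endothelial and neural list. Elsewhere miR-223-5p turned with no scaling (0.12) and miR-1260b in the deposited log2 table (0.85). The cause was not tested. With 3 arrays per group, the number of arrays and the blank spot signal limit what low probes can show.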
